A study of Tradescantia spathacea with 6 samples.

Results

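In leaves of Tradescantia spathacea, an ornamental plant whose leaves are purple underneath, the 154 most abundant transcripts were followed from low light to full sunlight. They were selected on the deposited counts: the level of an assembled gene was its CPM (the count scaled to the library's column sum), and genes with a mean of 500 CPM or more over all 6 libraries were taken. This gave 154 of 91987 assembled genes. The study compared leaves of plants kept for 2 years at 100% of sunlight (full sunlight, 3 libraries) with leaves of plants kept for 2 years at 30% of it (low light, 3 libraries). The labels name no genotype, plant age, individual plant, pooling, harvest day or batch, and p-values here reflect no more than the spread among these 6 samples, part of which may be technical. The full sunlight libraries differed among themselves. For most members that changed, replicate 2 was the nearest to low light and replicate 1 the furthest from it. Results that rest on full sunlight replicate 2 are given with and without it. The study's title concerns the balance of anthocyanin-based light protection and photosynthetic capacity.

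In a leaf, a small set of messenger RNAs usually takes a large part of the pool, and these are typically the transcripts for light-harvesting chlorophyll-binding proteins, the small subunit of the carbon-fixing enzyme Rubisco and other parts of the photosynthetic machinery. Leaves acclimated to shade usually invest more in light harvesting than leaves acclimated to strong sun, which often accumulate anthocyanins, the red and purple pigments that screen light. The table pairs its identifiers with no gene names, so none of the genes below is assigned to any of these functions, and the leaf label could not be checked against marker genes. An identifier of the form used here gives a component, the entries that the assembler joined by shared sequence, followed by a gene number. An entry may be a whole gene, a fragment or a near-identical copy, and reads shared between entries can be split among them.

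The members ranged from 501 to 14174 CPM, with a median of 833 CPM. There were 20 members at 2000 CPM or more and 55 at 1000 CPM or more. Total counts per library were 14748349 to 15958899, and the lowest count of each member over the 6 libraries carried a median counting error of 1.13%. The spread between libraries was far larger. The coefficient of variation within a condition had a median over members of 17.9% in full sunlight and 12.3% in low light, and it was larger in full sunlight for 102 of the 154. In all, 81 members stood at 500 CPM or more in every library. Another 24 had a full sunlight mean under 500 CPM and 16 a low light mean under 500 CPM, so these 40 entered only through the condition in which they were high. Just inside the limit lay TRINITY_DN142_c0_g2 with a mean of 501.1 CPM and TRINITY_DN1017_c0_g1 with 501.0 CPM. Just outside it lay TRINITY_DN8469_c1_g1 with 491 CPM and TRINITY_DN27469_c0_g2 with 489 CPM.

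As a group, the abundant genes lost share of the library under full sunlight. Their part of all counts was 14.6%, 19.4% and 16.6% in the full sunlight libraries (replicates 1, 2 and 3) and 23.9%, 23.3% and 21.3% in the low light libraries. Every full sunlight library lay below every low light library, with replicate 2 the closest to low light. The low light mean was 22.8% ± 1.39 (SD, n = 3) and the full sunlight mean 16.9% ± 2.41, which is a change of -5.97 percentage points, or -26.1% of the low light share. The 10 most abundant genes accounted for -3.18 points of it, their share being 7.47% ± 0.889 under low light and 4.29% ± 1.57 under full sunlight. The remaining 144 accounted for -2.785 points. No p is given for these shares, since the members were chosen on the same counts. In a tissue sample such as this, fewer cells of a type and less RNA per cell cannot be told apart.

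**Figure D1:**
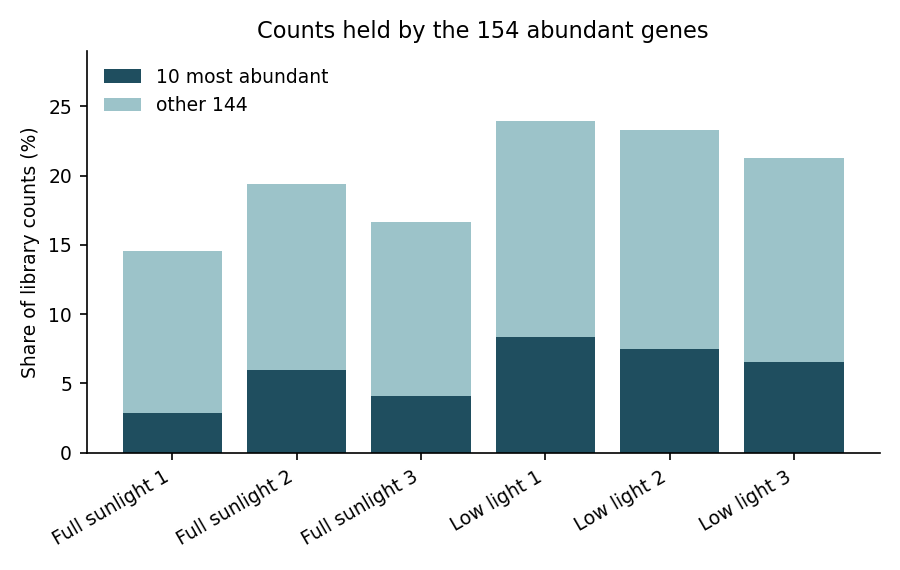
Share of library counts (%, bars from 0) held by the 10 most abundant genes (dark) and the other 144 abundant genes (light) in each of the 6 libraries. The full sunlight totals are 14.6% to 19.4% and the low light totals 21.3% to 23.9%, and both segments are smaller in full sunlight.

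The loss was unevenly divided. There were 97 members with a smaller mean share in full sunlight, whose changes summed to -7.48 percentage points, and 57 with a larger one, which together gained 1.52 points. The 5 largest losses made up 36.2% of all losses, and 11 genes made up more than 50% of them. TRINITY_DN4726_c0_g1 changed by -0.776 points, TRINITY_DN3851_c0_g1 by -0.764, TRINITY_DN3686_c0_g1 by -0.573, TRINITY_DN2885_c0_g1 by -0.299 and TRINITY_DN2700_c0_g1 by -0.299. All 5 are among the 10 most abundant genes. The 5 largest gains were small beside these and summed to 0.479 points: TRINITY_DN2996_c0_g1 gained 0.126 points, TRINITY_DN1673_c0_g1 0.112, TRINITY_DN19077_c0_g2 0.0985, TRINITY_DN3731_c0_g3 0.0828 and TRINITY_DN1484_c1_g1 0.0597. Of these 5 gains, those of TRINITY_DN1673_c0_g1 and TRINITY_DN3731_c0_g3 passed the test per gene described next.

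**Figure D2:**
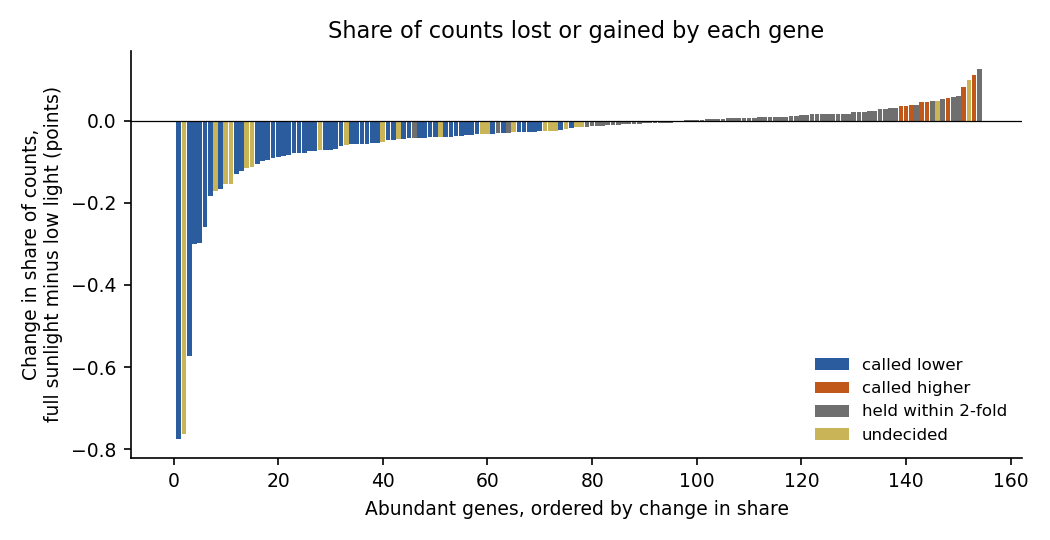
Change in mean share of library counts (percentage points, full sunlight minus low light) for each of the 154 abundant genes, ordered from the largest loss to the largest gain and coloured by the outcome of the test per gene. A few genes at the left, down to -0.776 points, carry much of the loss, and no gain exceeds 0.126 points.

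Gene by gene, 55 of the 154 fell in full sunlight, 8 rose, 69 held and 22 stayed undecided. Fell and rose mean an adjusted p under 0.05 in edgeR's quasi-likelihood test on the whole table with TMM scaling (trimmed mean of M values), which puts the typical gene near a log2 fold change of 0. Held means not called, with a 95% interval of the log2 fold change wholly within 2-fold either way. It does not mean equal: for 14 of the 69 that interval left out 0. Undecided genes missed the threshold with an interval reaching beyond 2-fold. The members called lower were 35.7% of all members, where 8.63% of all 40084 tested genes were called lower, and those called higher were 5.19%, where 6.77% of tested genes were. Members that held were 44.8%, close to the 43.7% of all tested genes. By the choice of members, every tested gene outside the list had a lower mean level, so these percentages were not matched for level. The median log2 fold change of the members was -0.53 and that of all tested genes 0.02.

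Without scaling beyond library size, the log2 fold changes of tested genes shifted up by a median of 0.18. On that scale 45 members were lower, all among the 55, and 17 higher, against 6.13% and 12.9% of tested genes. The number of falls depended on single libraries: 20 members were lower when full sunlight replicate 3 was left out and 79 when replicate 2 was. Those 79 were 51.3% of members, where 12.3% of all genes tested in that fit were lower. Leaving out low light replicate 1 gave 26, and leaving out replicate 3 of that group 32. Rises numbered 3 after dropping replicate 1 of the full sunlight group, 15 (9.74%; 8.9% of genes tested in that fit) after dropping replicate 2 and 1 after dropping replicate 3. They numbered 1 after dropping either replicate 1 or replicate 3 of the low light group. With limma on log2(FPKM + 1), 9 members were lower and 5 higher, against 61 lower and 25 higher at an unadjusted p under 0.05. For the FPKM fit and the fits without other libraries, the share of all genes called is not given here. These fits covered the whole table, but whether calls were lost among members or among all tested genes was not counted. FPKM is the deposited level scaled to gene length and library size.

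Falls were most frequent among the most abundant members. Among the 10 most abundant genes 5 fell, 0 rose, 1 held and 4 were undecided, with a median log2 fold change of -0.95 (edgeR adjusted p under 0.05). At ranks 11 to 50, 19 of 40 fell and 2 rose, with a median of -0.70. At ranks 51 to 100, 18 of 50 fell and 4 rose, with a median of -0.52, and in the last 54 members 13 fell and 2 rose, with a median of -0.25. Levels of single genes overlapped less downwards than upwards: each full sunlight library was under each low light library in 65 members (42.2%; 11.6% of tested genes) and above them in 29 (18.8%; 27.6% of tested genes). Those 65 include all 55 called lower, and those 29 include all 8 called higher. Because 40 members passed the 500 CPM limit through one condition only, the 114 with a mean of 500 CPM or more in both conditions were also counted. Of these, 37 fell, 6 rose, 52 held and 19 were undecided, where 8.63% of all tested genes fell, 6.77% rose and 43.7% held.

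**Figure D3:**
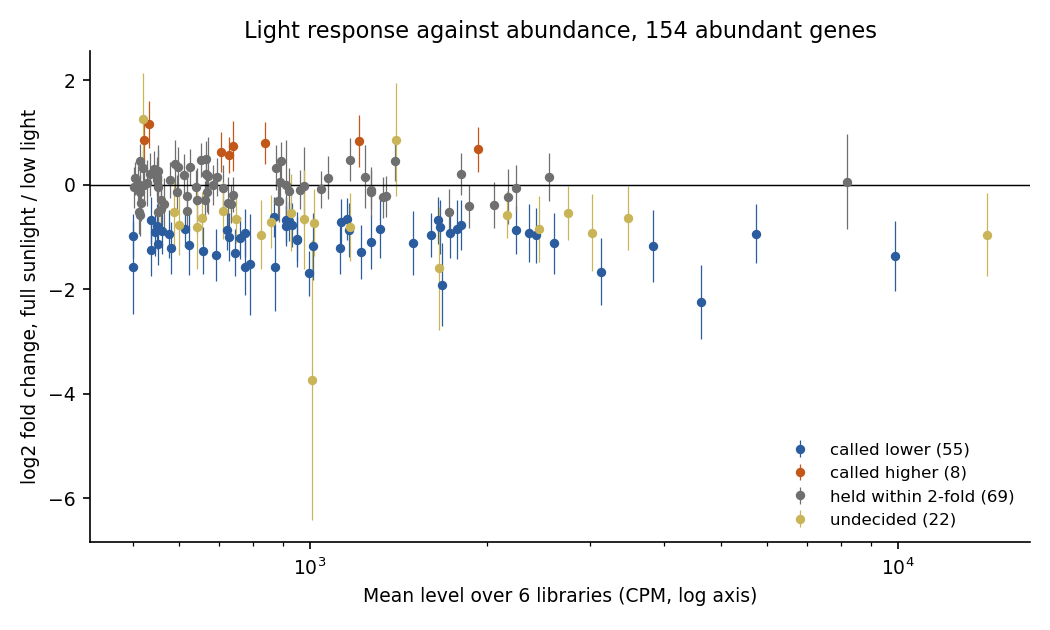
Log2 fold change of each abundant gene (full sunlight over low light, TMM-scaled, bars are 95% intervals) against its mean level over 6 libraries (CPM, log axis), coloured by outcome. Points above 2000 CPM lie mostly below 0, while those near 500 CPM spread to both sides of it.

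The most abundant transcript, TRINITY_DN3851_c0_g1, stood at 6270, 14806 and 9984 CPM in full sunlight replicates 1 to 3. It stood at 19922, 20597 and 13465 CPM in low light replicates 1 to 3. Full sunlight replicate 2 lay above low light replicate 3, so the conditions overlapped, and the fall did not pass the test (edgeR log2 fold change -0.96, SE 0.36, adjusted p = 0.0959). Without full sunlight replicate 2 it was called lower (edgeR log2 fold change -1.35, adjusted p = 0.0060). With all libraries DESeq2 also called it lower (adjusted p = 0.0065). On the FPKM scale, which allows comparison between genes, it ranked first in both conditions, with mean FPKM of 39499 under low light and 21925 under full sunlight.

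The second, TRINITY_DN4726_c0_g1, fell to 43.6% of its low light mean in CPM. Its levels were 4090, 7744 and 6173 CPM in full sunlight and 15916, 13219 and 12156 CPM in low light. The conditions were well apart, with a log2 fold change of -1.37 ± 0.30 (SE) and an adjusted p of 0.0147 in edgeR. By mean FPKM it moved from rank 3 in low light to rank 18 in full sunlight. The call was lost without full sunlight replicate 3 and kept without each of the other 5 libraries.

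TRINITY_DN2996_c0_g1, the third, was the exception at the top and held within 2-fold as a mean. Its levels were 5778, 13230 and 7417 CPM in full sunlight and 11719, 6537 and 4401 CPM in low light. One library stood high in each condition, and the log2 fold change was 0.05 with a 95% interval of -0.86 to 0.96. Without full sunlight replicate 2 it was -0.41. The gene was undecided with library size alone and without any single library, so its place among the held genes depends on the full set of libraries.

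TRINITY_DN2700_c0_g1 and TRINITY_DN6560_c1_g1 also fell, with full sunlight coefficients of variation of 21.0% and 42.1%. The former stood at 3305, 5073 and 4328 CPM in full sunlight and 8369, 6793 and 6505 CPM in low light (edgeR log2 fold change -0.94, SE 0.25, adjusted p = 0.0319). The latter stood at 1587, 3703 and 2348 CPM in full sunlight and 5497, 5458 and 4442 CPM in low light (edgeR log2 fold change -1.18, SE 0.31, adjusted p = 0.0307). All full sunlight values of both genes lay below their low light values, and both calls were lost without full sunlight replicate 3 or any single low light library. That of TRINITY_DN2700_c0_g1 was also lost without full sunlight replicate 1.

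The other 3 undecided genes of the first 10 shared one feature in CPM, a full sunlight replicate 2 at or near the low light levels. TMM scaling, which CPM lacks, places that library lower against low light. TRINITY_DN6842_c1_g1 stood at 1980, 3935 and 2827 CPM in full sunlight and 4587, 3815 and 3683 CPM in low light. TRINITY_DN3444_c0_g3 stood at 1295, 3477 and 1949 CPM in full sunlight and 3830, 4061 and 3476 CPM in low light. TRINITY_DN1658_c0_g1 stood at 1970, 3111 and 2116 CPM in full sunlight and 3166, 3232 and 2909 CPM in low light. Their log2 fold changes were -0.63, -0.92 and -0.54 with edgeR adjusted p values of 0.150, 0.0892 and 0.146. Without full sunlight replicate 2 all 3 were called lower. In that fit the log2 fold changes were -0.95, -1.43 and -0.81 with edgeR adjusted p values of 0.0108, 0.0011 and 0.0087.

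The largest fall among the called genes was that of TRINITY_DN3686_c0_g1, the fifth most abundant. It stood at 1192, 2319 and 1772 CPM in full sunlight and 5841, 6673 and 9955 CPM in low light. The highest full sunlight value lay far below the lowest low light value, and the log2 fold change was -2.25 ± 0.32 (SE) with an adjusted p of 0.0025 in edgeR, a 4.76-fold difference. By mean FPKM it went from rank 65 to rank 216. Its call held without each of the 6 libraries in turn.

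TRINITY_DN3160_c0_g1 came next. Its levels were 412, 1189 and 706 CPM in full sunlight and 3186, 2464 and 2132 CPM in low light, with a log2 fold change of -1.92 ± 0.36 (SE) and an adjusted p of 0.0077 in edgeR. TRINITY_DN5736_c0_g1 had the smallest spread of the large falls. It stood at 455, 607 and 484 CPM in full sunlight and 1649, 1430 and 1371 CPM in low light, so that all full sunlight libraries were close to one another, with a log2 fold change of -1.70 ± 0.20 (SE) and an adjusted p of 0.0012 in edgeR. TRINITY_DN2885_c0_g1, the eighth most abundant, stood at 1010, 2151 and 1731 CPM in full sunlight and 4765, 4266 and 4831 CPM in low light. The change on the log2 scale was -1.67 ± 0.29 (SE) with an adjusted p of 0.0057 in edgeR. The calls of these 3 genes and of TRINITY_DN6036_c0_g1 held without each library in turn.

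TRINITY_DN6036_c0_g1 stood at 309, 565 and 404 CPM in full sunlight and 1253, 1134 and 997 CPM in low light (edgeR log2 fold change -1.57, SE 0.24, adjusted p = 0.0036). Its full sunlight mean was 37.8% of its low light mean. In the fifth, sixth and eighth largest falls, full sunlight replicate 2 stood well above the other full sunlight libraries. TRINITY_DN1017_c0_g1 stood at 133, 479 and 202 CPM in full sunlight and 760, 596 and 836 CPM in low light. TRINITY_DN43330_c0_g2 stood at 247, 777 and 404 CPM in full sunlight and 1174, 1625 and 1015 CPM in low light. TRINITY_DN3444_c0_g2 stood at 166, 769 and 390 CPM in full sunlight and 1255, 1185 and 986 CPM in low light. The wide full sunlight spread gave these 3 genes SEs of 0.38 to 0.44 on log2 fold changes of -1.58, -1.58 and -1.53, and edgeR adjusted p values of 0.0251, 0.0201 and 0.0404. Each of the 3 calls was lost on leaving out replicate 3 of full sunlight or replicate 1 of low light. Leaving out low light replicate 2 also ended those of TRINITY_DN43330_c0_g2 and TRINITY_DN3444_c0_g2, and leaving out low light replicate 3 those of TRINITY_DN1017_c0_g1 and TRINITY_DN3444_c0_g2.

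Over all 55 genes called lower, the log2 fold change ran from -2.25 to -0.62 with a median of -0.99, and 27 fell at least 2-fold. Together they account for -5.28 percentage points of share. There were 19 whose call held without each of the 6 libraries in turn. Among these was TRINITY_DN142_c0_g2, the last but one by abundance, which stood at 299.6, 430 and 362 CPM in full sunlight and 675, 676 and 565 CPM in low light (edgeR log2 fold change -0.99, SE 0.19, adjusted p = 0.0086).

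The 8 genes that rose were smaller in change and in abundance. Their log2 fold changes ran from 0.57 to 1.16 with a median of 0.77, 1 of them rose at least 2-fold, and together they gained 0.453 percentage points of share. TRINITY_DN1094_c0_g1 rose most. It stood at 1016, 559 and 724 CPM in full sunlight and 296, 331 and 275 CPM in low light. The low light libraries were close together and the full sunlight libraries all higher, with a log2 fold change of 1.16 ± 0.20 (SE) and an adjusted p of 0.0060 in edgeR. This was the only rise whose call held without each of the 6 libraries in turn.

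TRINITY_DN1673_c0_g1 was the most abundant of the genes that rose. It stood at 2614, 2096 and 2772 CPM in full sunlight and 1167, 1457 and 1500 CPM in low light (edgeR log2 fold change 0.68, SE 0.19, adjusted p = 0.0394). TRINITY_DN3731_c0_g3 stood at 1975, 1132 and 1780 CPM in full sunlight and 641, 943 and 820 CPM in low light (edgeR log2 fold change 0.84, SE 0.23, adjusted p = 0.0336). In both genes full sunlight replicate 2 was the lowest of its condition but above every low light library. TRINITY_DN7025_c0_g2 stood at 1251, 886 and 1207 CPM in full sunlight and 488, 590 and 620 CPM in low light (edgeR log2 fold change 0.79, SE 0.18, adjusted p = 0.0166). TRINITY_DN269_c0_g3 stood at 1053, 850 and 1008 CPM in full sunlight and 470, 676 and 390 CPM in low light (edgeR log2 fold change 0.74, SE 0.21, adjusted p = 0.0420). The pattern was the same, with replicate 2 lowest in full sunlight.

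TRINITY_DN2923_c0_g1 stood at 961, 779 and 950 CPM in full sunlight and 432, 589 and 524 CPM in low light (edgeR log2 fold change 0.62, SE 0.17, adjusted p = 0.0370). TRINITY_DN8166_c0_g1 stood at 905, 887 and 950.1 CPM in full sunlight and 523, 571 and 541 CPM in low light. This was the steadiest of the 8, with full sunlight replicate 2 close to the others and a log2 fold change of 0.57 ± 0.15 (SE) and an adjusted p of 0.0319 in edgeR. All 8 rises were also called with library size alone and on leaving out full sunlight replicate 2. All but that of TRINITY_DN1094_c0_g1 were lost on leaving out full sunlight replicate 3, low light replicate 1 or low light replicate 3, and 2 of the 8 were called with the replicate block.

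**Figure D4:**
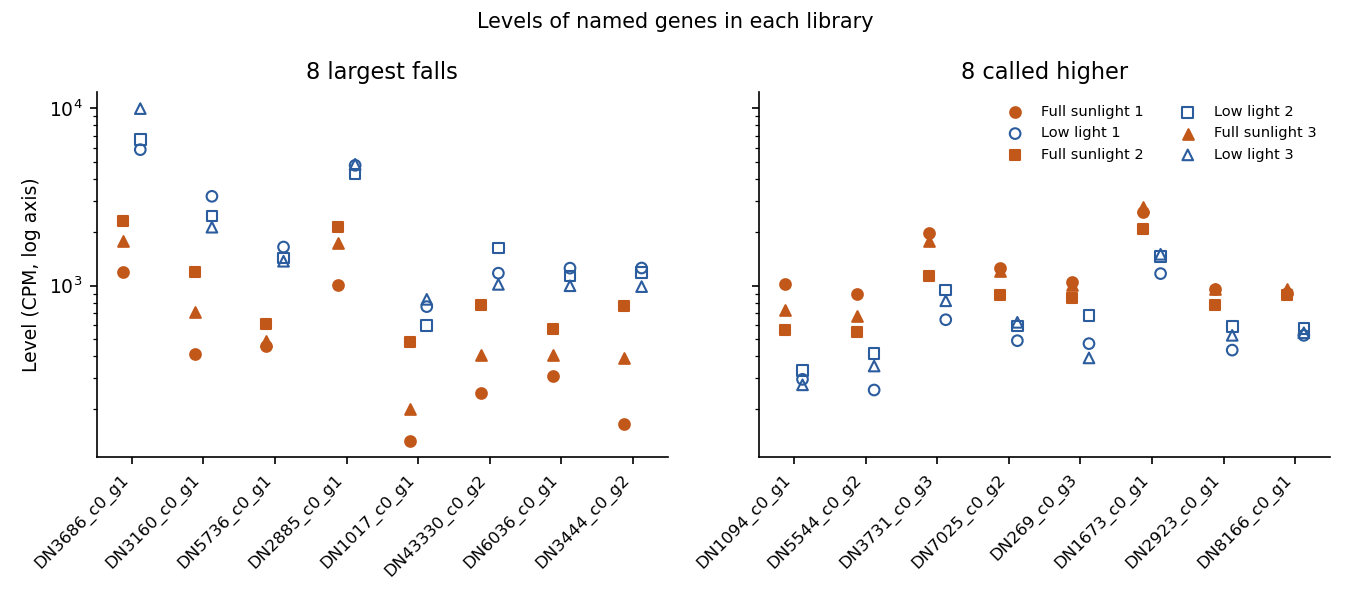
Level (CPM, log axis) in each library of the 8 genes with the largest called falls (left) and of the 8 genes called higher (right); filled symbols are full sunlight, open symbols low light, and the shape gives the replicate number. Filled and open symbols do not overlap in any of the 16 genes. In CPM, without TMM scaling, the filled square, full sunlight replicate 2, is the full sunlight value nearest to low light in each of them.

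TRINITY_DN5544_c0_g2 rose in counts, and its difference was larger per length but did not pass the test on that scale. It stood at 895, 546 and 673 CPM in full sunlight and 257, 415 and 351 CPM in low light (edgeR log2 fold change 0.86, SE 0.22, adjusted p = 0.0241). The deposited FPKM values were 258, 131 and 188 in full sunlight and 46.6, 78.7 and 67.7 in low light. On log2(FPKM + 1) the difference was 1.55 with a limma adjusted p of 0.0526, so the groups did not overlap but the threshold was missed. That fit kept 4 of the 8 rises and 9 of the 55 falls, so a missed threshold there was not particular to this gene. The length implied by count and FPKM was thus 3468, 4162 and 3571 bases in full sunlight and 5526, 5273 and 5191 bases in low light, a ratio of 0.701 without overlap. Over all members that ratio had a median of 1.02, with 5% of them below 0.939 and 5% above 1.09. The other member outside 0.8 to 1.2 was TRINITY_DN17072_c0_g1, at 1.22, which held in counts. The implied lengths of these genes thus differed between the light conditions; the assembly behind them was not analysed here.

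The members were longer than the typical tested gene by this measure. Their median implied length was 1110 bases against 864 for all tested genes, and 17.5% of them lay under 500 bases against 28.1% of tested genes. Genes that rose had a median of 2697 bases, those that fell 1118, those that held 1205 and those undecided 468. Ranking by count favours long genes, and of the 154 genes with the highest mean FPKM, 84 (54.5%) were members. By mean FPKM, 7 of the first 10 genes were the same in both conditions.

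The 69 genes that held lay between log2 fold changes of -0.58 and 0.49, 38 below 0 and 31 above, and 26 of the 69 lay wholly within 1.5-fold. The 5 with the smallest change were TRINITY_DN1147_c0_g3, TRINITY_DN46683_c0_g1, TRINITY_DN12122_c0_g1, TRINITY_DN7556_c0_g1 and TRINITY_DN1122_c0_g1, with log2 fold changes from -0.03 to 0.02. They differed in their spread between libraries. TRINITY_DN12122_c0_g1 stood at 777, 618 and 787 CPM in full sunlight and 705, 539 and 684 CPM in low light, with a 95% interval of the log2 fold change of -0.39 to 0.38. TRINITY_DN7556_c0_g1 was as narrow, at 538, 482 and 619 CPM in full sunlight and 446, 441 and 541 CPM in low light. TRINITY_DN1147_c0_g3 stood at 675, 405 and 592 CPM in full sunlight and 474, 536 and 456 CPM in low light.

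The other two of these 5 varied widely within each condition. TRINITY_DN46683_c0_g1 stood at 618, 1563 and 707 CPM in full sunlight and 1264, 709 and 604 CPM in low light. TRINITY_DN1122_c0_g1 stood at 647, 1567 and 861 CPM in full sunlight and 1263, 853 and 686 CPM in low light. Both had full sunlight replicate 2 and low light replicate 1 high. The former was undecided without any single library, and the latter without full sunlight replicate 2 or any single low light library. TRINITY_DN1484_c1_g1 held in the test used here but was called higher in others. It stood at 1843, 1507 and 1740 CPM in full sunlight and 1056, 1061 and 1182 CPM in low light, so its libraries did not overlap. The log2 fold change was 0.44 with TMM (edgeR adjusted p = 0.101) and 0.63 with library size, where it was called higher. It was also called higher by DESeq2 and by limma-voom, with a log2 fold change of 0.44 in both. In all, 20 of the 69 genes that held had every full sunlight library above every low light library in CPM. The same was true of 27.6% of all tested genes, and CPM carries no TMM scaling.

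Of the 22 undecided genes, 20 had a log2 fold change below 0 and 2 above it, with edgeR adjusted p values of 0.0536 to 0.324. Their coefficient of variation in full sunlight had a median of 40.4%, against 21.6% for genes that fell and 10.3% for genes that held; the width of the interval is part of what defines the class. TRINITY_DN11966_c1_g2 had a full sunlight range from 238 to 1674 CPM, at 238, 1674 and 746 CPM in replicates 1 to 3, and stood at 2586, 2718 and 1982 CPM in low light (edgeR log2 fold change -1.61, SE 0.54, adjusted p = 0.0677). TRINITY_DN19077_c0_g2 stood at 3193, 739 and 1746 CPM in full sunlight and 375, 1077 and 1271 CPM in low light (edgeR log2 fold change 0.86, SE 0.49, adjusted p = 0.268). TRINITY_DN54079_c1_g1, named after its values were seen, had the largest coefficient of variation in both conditions: it stood at 8.27, 168 and 287 CPM in full sunlight and 93.1, 3315 and 2186 CPM in low light. It entered the list through low light replicates 2 and 3, and its log2 fold change of -3.75 had an SE of 1.21 (edgeR adjusted p = 0.0609).

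Members of one component shared a class in 5 of 7 cases. There were 7 components with 2 abundant genes each. In the component of TRINITY_DN8631_c0_g1 and TRINITY_DN8631_c0_g2 both fell. The first stood at 1104, 1582 and 1192 CPM in full sunlight and 2295, 2359 and 1860 CPM in low light. The second stood at 439, 993 and 583 CPM in full sunlight and 1442, 1425 and 1193 CPM in low light, with a wider full sunlight spread. In the pair TRINITY_DN3444_c0_g3 and TRINITY_DN3444_c0_g2 the less abundant entry fell and the more abundant one was undecided, and in both full sunlight replicate 2 was far above replicates 1 and 3. In the pair TRINITY_DN11966_c1_g2 and TRINITY_DN11966_c1_g3 the latter fell, at 1172, 1537 and 1374 CPM in full sunlight and 2221, 1787 and 1807 CPM in low light, while the former had the wide spread given above. Whether entries of a pair are copies or fragments of one gene was not analysed here, and the counts above take each entry as a separate member. Including these, the members belonged to 147 components, which held another 143 entries below the limit; these entries together had 2.44% of the members' counts.

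For most members that changed, full sunlight replicate 2 had an intermediate level. Among the 55 genes that fell it was the highest full sunlight library in 48, and replicate 1 was the lowest in 50. The order replicate 1 below replicate 3 below replicate 2 was found in 46 of the 55. Among the 8 that rose, replicate 2 was the lowest in all 8 in CPM. With TMM scaling, the log2 fold change of TRINITY_DN8166_c0_g1 was 0.57, 0.61 without replicate 1 and 0.56 without replicate 2. Leaving out replicate 2 thus did not enlarge that rise. Among the 69 that held, replicate 2 was highest in 20 and lowest in 38. These orders were not counted over all tested genes, so they are not shown to be particular to abundant genes.

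To place replicate 2 on genes called without it, the test was repeated on the other 5 libraries. The 500 CPM limit still used all 6 libraries, so replicate 2 had a part in choosing the members, and its position is a description. That fit called 79 members lower (51.3%; 12.3% of all genes tested in it) and 15 higher (9.74%; 8.9%). It kept all 55 falls and all 8 rises and added 24 falls and 7 rises, 20 of these 31 from the undecided genes and 11 from those that held. For the 79 genes, replicate 2 lay in CPM below all low light libraries in 62, within their range in 13 and above all of them in 4. CPM carries no TMM scaling. With all 6 libraries the TMM factors were 1.03 for replicate 2 and 0.929 to 0.953 in low light. On the scale of the test replicate 2 thus stood lower against low light than these positions show. On the log2 CPM scale it had gone a median of 49.4% of the way from the low light mean to the mean of replicates 1 and 3, with an interquartile range of 24.5% to 61.6%. For the 15 genes called higher it lay above all low light libraries in 14 and had gone a median of 62.1% of the way. Replicate 3, read in the same manner on the 20 genes called lower without it, lay below all low light libraries in 20 and stood at a median of 95.6%. Replicate 1, on 42 genes called lower without it, stood at 162% and lay below all low light libraries in 42. The 3 gene sets differ and share their low light libraries, and no test between libraries was made.

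**Figure D5:**
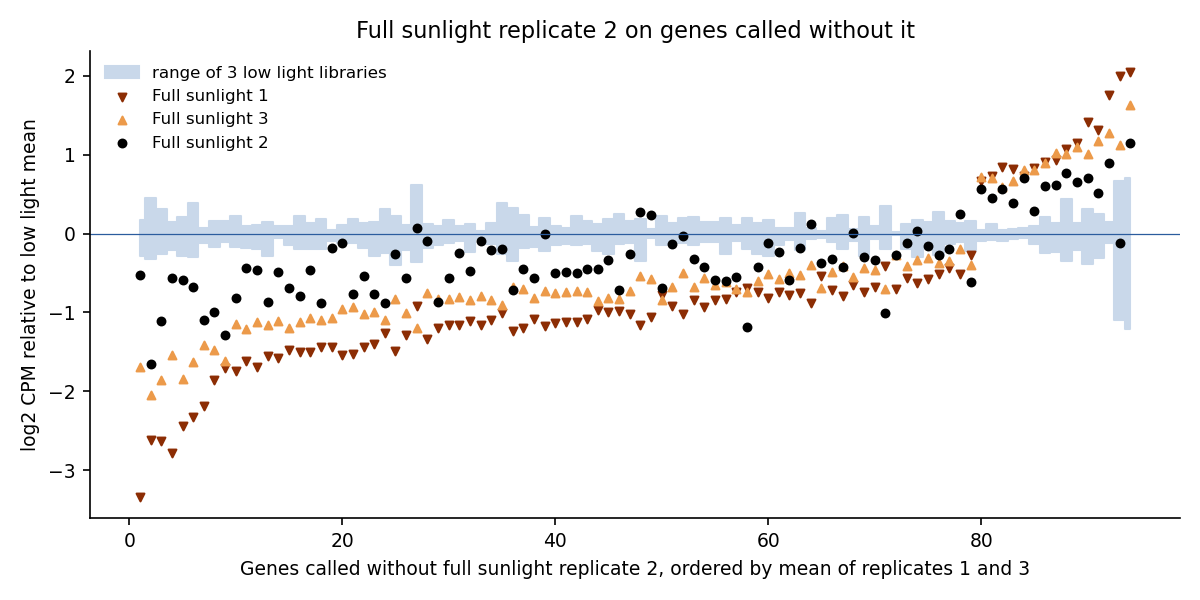
Level in each full sunlight library relative to the low light mean (log2 CPM difference) for the 94 abundant genes called without full sunlight replicate 2, ordered by the mean of replicates 1 and 3; the band is the range of the 3 low light libraries. The black points of replicate 2 lie mostly between the band and the other full sunlight points, at a median of 49.4% of the way for the 79 lower genes and 62.1% for the 15 higher ones.

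Of genes whose call appeared when replicate 2 was left out, the largest changes in that fit were those of TRINITY_DN11966_c1_g2 (log2 fold change -2.50), TRINITY_DN14942_c0_g1 (-1.46), TRINITY_DN8782_c0_g1 (1.43) and TRINITY_DN3444_c0_g3 (-1.43). TRINITY_DN14942_c0_g1 stood at 386, 927 and 498 CPM in full sunlight and 1083, 1081 and 983 CPM in low light, so that replicate 2 almost reached the low light levels. TRINITY_DN8782_c0_g1 stood at 1000.5, 534 and 752 CPM in full sunlight and 104, 344 and 394 CPM in low light. In that gene low light replicate 1 was far below the other low light libraries as well.

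In 4 genes called lower without replicate 2, that library stood above every low light library in CPM. These and the next 3 were named after their values were seen. TMM scaling places replicate 2 lower against low light, so not each of the 4 need stand above it on the scale of the test. TRINITY_DN3529_c1_g2 stood at 464, 1250 and 712 CPM in full sunlight and 1157, 810 and 1177 CPM in low light. TRINITY_DN23104_c0_g2 stood at 318, 779 and 444 CPM in full sunlight and 689, 665 and 636 CPM in low light. The same held for TRINITY_DN2141_c0_g2, with 860 CPM in replicate 2 against at most 835 in low light, and for TRINITY_DN8295_c0_g2, with 689 CPM against at most 639.

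The opposite was seen in 3 genes in which replicate 2 had gone further from low light than the mean of replicates 1 and 3. TRINITY_DN9527_c0_g1 stood at 759, 540 and 732 CPM in full sunlight and 1406, 1071 and 1213 CPM in low light, and its call held without each library in turn. TRINITY_DN8971_c0_g1 stood at 823, 646 and 749 CPM in full sunlight and 1110, 849 and 1032 CPM in low light. TRINITY_DN3624_c1_g1 stood at 514, 340 and 419 CPM in full sunlight and 619, 597 and 872 CPM in low light. In these 3 genes replicate 2 was the lowest library of all 6, so its nearness to low light did not extend to every abundant gene.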

How the data were processed

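Leaf RNA was sequenced in 3 full sunlight and 3 low light libraries made with a Trizol-based extraction and the NEBNext Ultra kit, per the labels' protocols. The authors deposited estimated counts in whole numbers, and RSEM is named in the submitters' processing notes. The FPKM values were deposited by the authors and are scaled to gene length and library size. No source used here gives the aligner, read filters, assembly settings or use of strand.

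CPM were counts divided by column sums. Counts were tested with edgeR 4.0.16 in R 4.3.3 (filterByExpr, which kept 40084 genes and all 154 members; TMM; two-sided quasi-likelihood F test; Benjamini-Hochberg adjustment over all genes tested). Standard errors came from the F statistic, and 95% intervals from the t distribution. DESeq2 1.42.0 and limma 3.58.1 served as alternatives; for FPKM, genes with at least 1 FPKM in 3 libraries were kept. The implied length was the count divided by FPKM and column sum. The fit was also run on simulated data with known changes, drawn without any shift shared by the genes of one library. Its outcome is not given here, and it cannot bear on the dependence on single libraries. Within a condition, the chi-square statistic of a pair of libraries per degree of freedom was at least 9.93, so no pair agreed within sampling noise.

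Members, named genes and comparisons were chosen with earlier results of these data known. Named were the 10 most abundant genes, the 8 largest called falls without overlap, all rises, the 5 held genes with the least change, the 4 largest calls that appeared without full sunlight replicate 2, the neighbours of the limit, the 5 largest gains and losses of share and the members of the 3 most abundant components with several entries.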

Additional observations from a re-analysis of the deposited data

How the results depend on the processing

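Against 55 falls, the count stayed within 1.5 times with upper-quartile, DESeq2 or library-size scaling, with limma-voom, with DESeq2 as the test, with both other count filters, the replicate block and the other choices of members. It was 9 with limma on log2(FPKM + 1) and 9 with a pseudocount of 0.1, where 67 were lower at an unadjusted p under 0.05. It was 19 at an adjusted p under 0.01, 27 with at least 2-fold, and 20 to 79 when single libraries were left out. Of all tested genes, 8.63% were lower in the reported fit, 6.13% with library size and 12.3% without full sunlight replicate 2. The shares called higher were 6.77%, 12.9% and 8.9%. For the other settings such shares were not counted, so falls and rises there do not separate members from all genes. Against 8 rises, the count was 17 with library size, 14 with DESeq2, 14 with limma-voom, 5 and 4 with the FPKM fits, 2 with the replicate block, 1 at an adjusted p under 0.01, 1 with at least 2-fold, 13 with members from 400 CPM, and 1 to 15 when single libraries were left out. Genes that held numbered 69, and 44 with members from 600 CPM, where fewer genes are counted, and 26 within 1.5-fold. The fall in share of counts was -5.97 points, -4.82 to -7.22 without single libraries, and -2.785 without the 10 most abundant genes. The cause of the other differences was not tested. The replicate block called 47 falls, 42 of them among the 55; the labels give replicate numbers no shared plant, day or batch, and same-numbered libraries did not deviate together (correlations across genes of 0.018, -0.048 and -0.031), so the numbers were not used as pairs. Of 38 named members, each in 16 alternative fits, 467 outcomes stayed on their side of the threshold, 104 lost and 34 gained a call, and 3 uncalled values were set apart as moved. Shifts larger than the SE of the reported fit also occurred among the 467. TRINITY_DN2996_c0_g1 went from 0.05 (SE 0.41) to 0.52 without low light replicate 1. The sign turned 40 times, in 6 genes called neither in the reported nor in the alternative fit. Counting error was small at these levels, so the number of libraries limits precision more than depth.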

Other observations

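A few abundant genes varied with single libraries within a light condition, a pattern noticed in the data and then counted. In 4 of the 154 members (2.60%; 0.816% of tested genes), full sunlight replicate 2 was at least 1.4 times each of its group mates, and low light replicate 1 at least 1.4 times each of its own. These were TRINITY_DN2996_c0_g1, TRINITY_DN1122_c0_g1, TRINITY_DN46683_c0_g1 and TRINITY_DN5466_c0_g1. The last stood at 467, 890 and 373 CPM in full sunlight replicates 1 to 3 and at 771, 483 and 329 CPM in low light replicates 1 to 3. In 5 members (3.25%; 3.54% of tested genes) low light replicate 1 was at most 0.5 times each of the other low light libraries. They were TRINITY_DN19077_c0_g2, TRINITY_DN17072_c0_g1, TRINITY_DN54079_c1_g1, TRINITY_DN3677_c1_g1 and TRINITY_DN8782_c0_g1. TRINITY_DN17072_c0_g1 stood at 1427, 1276 and 1452 CPM in full sunlight and 607, 1397 and 1301 CPM in low light, and TRINITY_DN3677_c1_g1 at 898, 551 and 812 CPM in full sunlight and 267, 743 and 757 CPM in low light.

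Some abundant genes barely differed between any of the 6 libraries. TRINITY_DN1227_c0_g2 stood at 759, 701 and 751 CPM in full sunlight and 690, 772 and 764 CPM in low light, with a log2 fold change of -0.19 and a 95% interval of -0.53 to 0.15. TRINITY_DN2229_c0_g1 stood at 498, 542 and 522 CPM in full sunlight and 503, 545 and 482 CPM in low light, with a log2 fold change of -0.15 and a 95% interval of -0.49 to 0.19. Both were named after their values were seen.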
